A study of Mus musculus with 60 samples.

Results

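Gata1s erythroblasts of the R1/2 sort were compared between embryonic day E14.5 (3 libraries) and embryonic day E12.5 (4 libraries) of mouse fetal liver. These 7 libraries are part of 20 RNA libraries and of 60 samples in all, and they were chosen by the genotype, day and sort in their titles, without use of a measured value. Gata1s embryos make a short form of GATA1, the transcription factor that drives red cell development, without its N-terminal part. The labels call them mutant, with the strain background C57BL/6, which the wild type embryos share. R1/2 cells were stained and sorted for high CD71, the transferrin receptor, and for little or no Ter119, which the labels give as negative to low in one place and as negative to medium in another. Used beside them were wild type R1/2 cells (2 libraries at E14.5 and 2 at E12.5) and Gata1s R3 cells, the more mature sort with high Ter119 (2 libraries at E14.5 and 2 at E12.5). Nothing in the labels ties a library to an embryo or a litter. The p-values and standard errors rest on the spread within groups over all 20 RNA libraries, fitted together, which may be technical. They thus do not measure the spread of the 7 libraries alone.

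The fetal liver is where definitive red cells form before birth. Its erythroblasts use adult globin genes, whereas primitive red cells of the yolk sac use embryonic ones, and as they mature they raise heme and membrane genes and leave the cell cycle. Around them, hepatoblasts make plasma proteins such as albumin and alpha-fetoprotein, and macrophages and myeloid cells become established. A separate set of genes, among them the imprinted growth genes Igf2 and H19 and the RNA-binding proteins of the Lin28b and Igf2bp families, is known for high levels in early fetal tissue and a decline with age.

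Of 10720 genes tested, 116 were higher at E14.5 than at E12.5 (1.08%) and 26 were lower (0.243%), 142 in all (1.32%), at a Benjamini-Hochberg adjusted p of limma under 0.05. An unadjusted p under 0.05 was reached by 1040 genes, and the median log2 difference over all tested genes was 0.01. Among the genes that rose were those of late red cell maturation, with adult beta globin and Alas2, and a few myeloid genes. Of the 26 genes that fell, 12 are in a gene list, namely 6 fetal growth genes, 5 hepatoblast genes and the glycolytic gene Pkm. All 3 E14.5 libraries lay above all 4 E12.5 libraries for 114 of the 116 genes called higher, against 10.7% of all tested genes, and below them for 24 of the 26 called lower, against 9.36%. At least a 2-fold difference was reached by 60 of the genes called higher and 18 of those called lower. Values are the deposited normalised counts, log2 differences are E14.5 minus E12.5 of log2(normalised count + 1) with their standard error, a scale that understates folds where counts are low.

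Depth was 13 to 30.9 M reads at E14.5 and 13.8 to 32.8 M at E12.5, so that 1 read equals 0.36 to 0.912 normalised counts. Library names start with JC or MS, whose meaning the labels do not give. E14.5 replicate 1 and E12.5 replicates 1 and 2 are JC, the other four are MS, and the fit has a term for the prefix. Per-library values below are in the order of the replicate numbers. Of the erythroblast markers, Gata1 had 3628, 3687 and 3561 normalised counts at E14.5, against 3549, 3764, 3475 and 3695 at E12.5 (log2 0.00 ± 0.07, adjusted p = 0.997), and Tfrc, which encodes CD71, ranged from 11805 to 13406 against 11765 to 14473 (-0.07 ± 0.08, adjusted p = 0.918). Counts per gene cannot tell the short from the full form of Gata1. Without E14.5 replicate 1, 25 genes were called higher and 5 lower. Other libraries whose omission moved a count by more than 1.5 times were E14.5 replicates 2 and 3 (77 and 73 higher, and 10 lower without replicate 3) and E12.5 replicates 1, 2 and 4 (72 higher and 11 lower, 11 lower, and 15 lower).

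**Figure D1:**
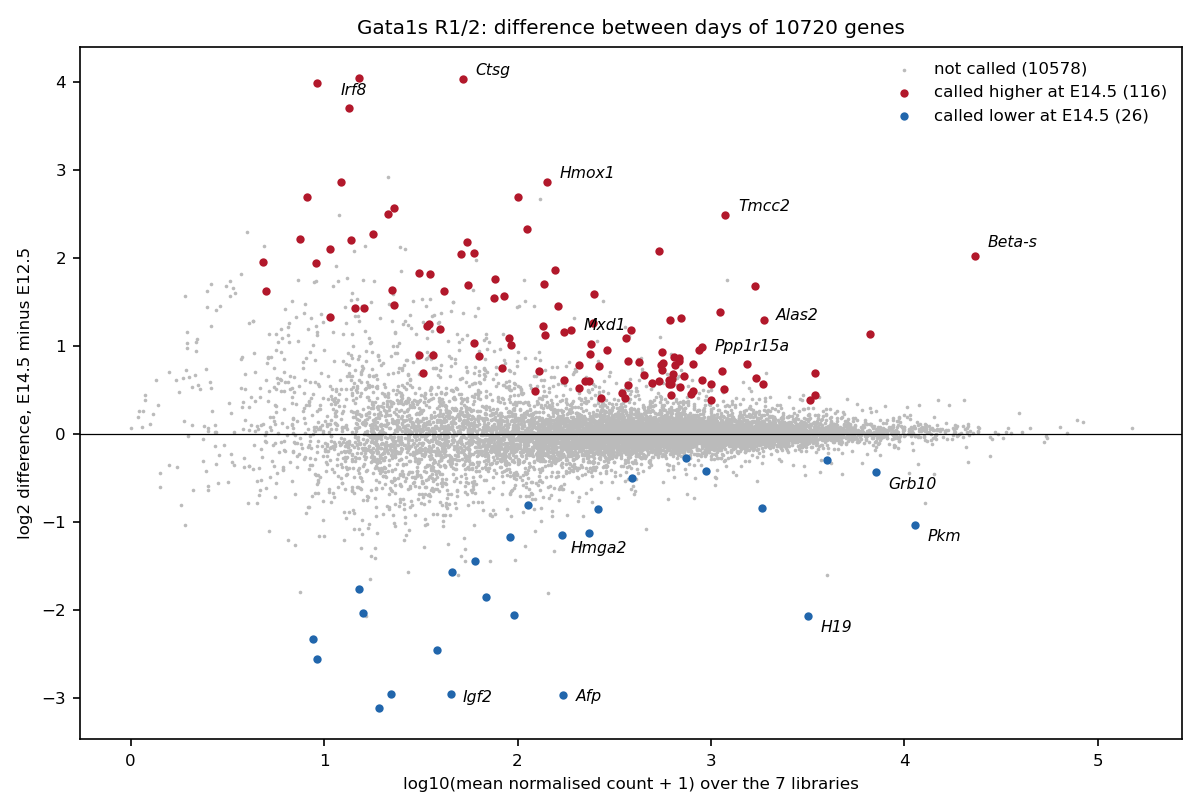
Each point is 1 of 10720 genes, with log10 of its mean normalised count plus 1 over the 7 libraries on the x axis and the log2 difference between E14.5 and E12.5 on the y axis. Red points (116) were called higher and blue points (26) lower at E14.5, and the called genes run from a log2 of -3.11 to 4.04.

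Adult beta globin rose to about 4 times its E12.5 level. It is listed as Beta-s, a synonym of Hbb-bs in RefSeq, and had 48780, 40772 and 34459 normalised counts at E14.5, against 6102, 7304, 13090 and 12376 at E12.5. Every E14.5 library was above every E12.5 library, and the log2 difference was 2.03 ± 0.31 (limma adjusted p = 0.00304, 4.08-fold). It was the single member tested of 5 adult globin entries, as the rest fell under the minimum mean of 10. Those others, Hbb-b1, Hbb-b2, Hba-a1 and Hba-a2, had 0 reads over the 7 libraries, so adult alpha globin cannot be followed here. Reads of near-identical globin copies could have been split or lost in the counting. The same gene averaged 92410 ± 78450 at E14.5 and 18690 ± 11960 at E12.5 in wild type R1/2 cells (SD, n = 2 each).

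Of the 4 embryonic globins none passed the test, and their median log2 difference was -0.66. Hbb-y, the embryonic beta-like globin, had 99224, 9624 and 26700 normalised counts at E14.5, against 14347, 17431, 55395 and 49833 at E12.5 (0.24 ± 0.85, adjusted p = 0.988). Hba-x, the embryonic alpha-like globin, had 16766, 2949 and 6665 at E14.5, against 6951, 8268, 23639 and 23665 at E12.5 (-0.79 ± 0.77, adjusted p = 0.883). In both, E14.5 replicate 1 stood above both E12.5 libraries of its prefix, so that the difference within JC libraries was positive (2.65 for Hbb-y and 1.15 for Hba-x) and within MS libraries negative (-1.71 and -2.42). Hbb-bh1 had 2423, 1097 and 2075 at E14.5, all below its 3025, 3641, 7249 and 8346 at E12.5, and its difference of -1.60 ± 0.48 had an adjusted p of 0.155. Hbb-bh2 was near the floor of 3 reads, with 1.55 to 3.32 normalised counts at E14.5 and 1.46 to 8.49 at E12.5 (adjusted p = 0.88).

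Alas2, which encodes the first and rate-limiting enzyme of heme synthesis in red cells, had 3252, 2710 and 2469 normalised counts at E14.5, against 586, 690, 1719 and 1657 at E12.5. The days did not overlap, but the E12.5 libraries fell into a lower JC pair and a higher MS pair. The log2 difference was 1.29 ± 0.29 (adjusted p = 0.036), with 2.35 within JC and 0.62 within MS libraries. Slc25a37, mitoferrin, which brings iron into mitochondria for heme, had 3664, 4951 and 4710 at E14.5, against 1639, 1795, 3680 and 3566 at E12.5 (0.69 ± 0.16, adjusted p = 0.0392), and there the days overlapped. Among 22 heme synthesis genes these 2 rose and none fell, with a median of 0.21 and 21 of 22 differences above 0, against 5527 of 10720 genes. Leaving out 1 library ended the call of Alas2 for 5 of 7 libraries (adjusted p 0.0514 without E14.5 replicate 2, and up to 0.42 without E14.5 replicate 1, with E12.5 replicates 1, 2 and 4 between them), and that of Slc25a37 for all except E12.5 replicate 3 (0.0628 to 0.442).

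The promoter windows of 3 globin genes that these values turn on, and of Alas2, chosen after its values were seen, are printed from RefSeq (GRCm38.p6), from 250 bases before to 50 bases after the annotated start, on the strand of the gene. Capitals mark 4 short motifs on either strand: GATAA, bound by GATA factors; CACCC, bound by Klf1 and its relatives; CCAAT; and TATAA. They are shown so that a gene that rose, 2 globins that did not pass and a heme gene that rose can be read side by side.
Hbb-bs (Beta-s in the table), chr7:103827879-103828178, minus strand: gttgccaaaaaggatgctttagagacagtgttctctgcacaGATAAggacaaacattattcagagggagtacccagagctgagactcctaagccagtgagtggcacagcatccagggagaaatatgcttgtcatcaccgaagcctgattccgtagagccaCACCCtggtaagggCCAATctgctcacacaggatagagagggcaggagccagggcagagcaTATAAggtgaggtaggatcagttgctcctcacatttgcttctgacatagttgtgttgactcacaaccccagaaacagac
Hbb-y, chr7:103853158-103853457, minus strand: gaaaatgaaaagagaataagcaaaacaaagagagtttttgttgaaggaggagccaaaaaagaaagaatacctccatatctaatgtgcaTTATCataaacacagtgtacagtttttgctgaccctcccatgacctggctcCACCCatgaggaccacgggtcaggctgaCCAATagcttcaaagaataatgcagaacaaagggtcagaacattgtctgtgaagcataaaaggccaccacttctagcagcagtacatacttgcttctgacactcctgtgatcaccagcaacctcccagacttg
Hba-x, chr11:32276350-32276649, plus strand: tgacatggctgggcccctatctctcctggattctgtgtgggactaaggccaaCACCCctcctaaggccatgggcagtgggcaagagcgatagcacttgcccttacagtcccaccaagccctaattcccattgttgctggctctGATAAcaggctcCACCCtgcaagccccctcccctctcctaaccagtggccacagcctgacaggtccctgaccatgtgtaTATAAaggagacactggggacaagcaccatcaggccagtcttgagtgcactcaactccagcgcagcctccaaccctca
Alas2, chrX:150547167-150547466, plus strand: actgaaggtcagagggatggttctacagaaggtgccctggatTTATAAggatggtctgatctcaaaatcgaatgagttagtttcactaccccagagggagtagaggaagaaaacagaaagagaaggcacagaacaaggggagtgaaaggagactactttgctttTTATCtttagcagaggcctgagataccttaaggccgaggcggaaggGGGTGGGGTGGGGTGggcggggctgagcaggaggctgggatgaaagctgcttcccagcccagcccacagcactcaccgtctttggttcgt
Each window holds GATAA once, with its first base at -209 in Hbb-bs, -162 in Hbb-y, -107 in Hba-x and -86 in Alas2, counted from the annotated start. CACCC occurs once in Hbb-bs and in Hbb-y, 2 times in Hba-x and 3 times in a row in Alas2, where the match is on the opposite strand. CCAAT is found in the Hbb-bs and Hbb-y windows, and TATAA in those of Hbb-bs, Hba-x and, as 2 overlapping matches on opposite strands, Alas2. Of the 116 genes called higher, 86 had a promoter window under the same symbol. GATAA was in 17.4% of these 86, against 15.8% of 8079 windows of tested genes and 25.8% of all 27025 windows. CACCC was in 73.3%, against 61.8% and 56.7%. CCAAT was in 36%, against 40% and 37.9%, and TATAA in 19.8%, against 12.3% and 25.5%. Of the 26 genes called lower 19 had a window, of which 26.3% held GATAA, 63.2% CACCC, 42.1% CCAAT and 10.5% TATAA. A match describes letters in the window and is not a site of binding.

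Red cell membrane genes rose in 8 of 32 cases and fell in none, with a median log2 difference of 0.23 and 31 of 32 above 0. Tmcc2, a transmembrane and coiled-coil protein gene, had the smallest p of the genes named here by the rule, with 2267, 2239 and 2263 normalised counts at E14.5 against 266, 286, 523 and 458 at E12.5. Its E14.5 libraries were almost equal and about 5 times the E12.5 ones (2.49 ± 0.21, adjusted p = 9.35e-06, 5.63-fold). Stom, stomatin of the red cell membrane, had 2222, 2125 and 2142 at E14.5, against 1171, 1255, 1521 and 1494 at E12.5 (0.64 ± 0.11, adjusted p = 0.00822). The others that rose were Aqp1, the water channel (1.68 ± 0.31), Slc2a4, a glucose transporter with few counts (1.44 ± 0.29), Slc4a1, the band 3 anion exchanger (1.14 ± 0.26), Epb4.9, dematin (0.81 ± 0.14), Rhd, the Rh antigen (0.80 ± 0.15), and Mpp1, p55 of the membrane skeleton (0.68 ± 0.14). Slc4a1 had 9084, 10363 and 9020 normalised counts at E14.5, against 2026, 2443, 6936 and 6684 at E12.5, again with the JC libraries lowest. The call of Stom was lost without E14.5 replicate 1 (adjusted p = 0.128), and that of Tmcc2 was not lost without any library.

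Late erythroid maturation genes rose in 11 of 42 cases and fell in none, with a median of 0.53 and 41 of 42 above 0. Mxd1, a partner of Max that opposes Myc, had 261, 311 and 276 normalised counts at E14.5, against 99.1, 99.6, 149 and 126 at E12.5 (1.19 ± 0.13, adjusted p = 0.000121). Isg20, an exonuclease gene, had 137, 124 and 116 at E14.5, against 36.4, 49.3, 23.7 and 42.4 at E12.5 (1.77 ± 0.23, adjusted p = 0.00063). In both, the 2 days were apart and the E14.5 libraries varied little. The list's other increases were in Ypel4 (2.04), Ypel3 (1.55), the ubiquitin-conjugating enzymes Ube2l6 (1.19) and Ube2o (0.96), Nxpe2 (0.83) and the CDK4 and CDK6 inhibitor Cdkn2c (0.75), besides Alas2, Slc4a1 and Tmcc2, which 2 lists share. Members that did not pass include Xpo7, a nuclear exportin (2470, 2487 and 2718 at E14.5, against 1447, 1380, 1551 and 1490 at E12.5, 0.70 ± 0.25, adjusted p = 0.28), and Bpgm, which makes 2,3-bisphosphoglycerate (1268, 793 and 835 against 428, 416, 594 and 570, 0.87 ± 0.25, adjusted p = 0.121). In wild type R1/2 cells at E14.5 they averaged 6205 ± 4833 and 1633 ± 1074 (SD, n = 2), a spread that enters the same fit.

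A further list was taken from the wild type libraries, of genes called and at least 2-fold higher or lower in R3 than in R1/2 cells. The 2308 genes higher in R3 are 21.5% of tested genes and hold 86 of the 116 genes called higher and 12 of the 26 called lower. They are not red cell genes alone. Those 12 include the hepatoblast genes Alb, Afp and Trf (R3 minus R1/2 of 3.37, 3.21 and 2.89) and the fetal growth genes H19, Igf2 and Peg3 (2.40, 2.51 and 2.17). The median day difference of the 2308 genes was 0.10 and 72% were above 0. It was -0.06, with 34.1% above 0, for the 2849 genes lower in R3, and 0.01, with 51.6%, for all tested genes. The genes lower in R3 hold 8 of those called higher and 8 of those called lower.

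Several other genes rose by more than 3-fold. Fhdc1, a formin-family gene, had 172, 244 and 205 normalised counts at E14.5, against 34.6, 39.5, 35.9 and 43.3 at E12.5 (2.33 ± 0.24, adjusted p = 9.57e-05). Slfn14-ps, of the Schlafen family, had 157, 225 and 182 at E14.5, against 10.9, 9.71, 53.1 and 56.9 at E12.5 (2.70 ± 0.32, adjusted p = 0.000244). Tcp11l2 (1.87), Fam214b (1.71), the transcription factor gene Runx3 (2.19), the guanine nucleotide exchange factor gene Dock10 (2.05) and the Schlafen gene Slfn3 (1.69) rose as well. Slfn14-ps and Slfn3 belong to a family with close copies, between which the counting could have split reads. Calls of Runx3, Dock10 and Slfn3 were lost without E14.5 replicate 1 (adjusted p = 0.178, 0.163 and 0.0744), and that of Runx3 also without E14.5 replicate 2 or E12.5 replicate 3 (from 0.0533).

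**Figure D2:**
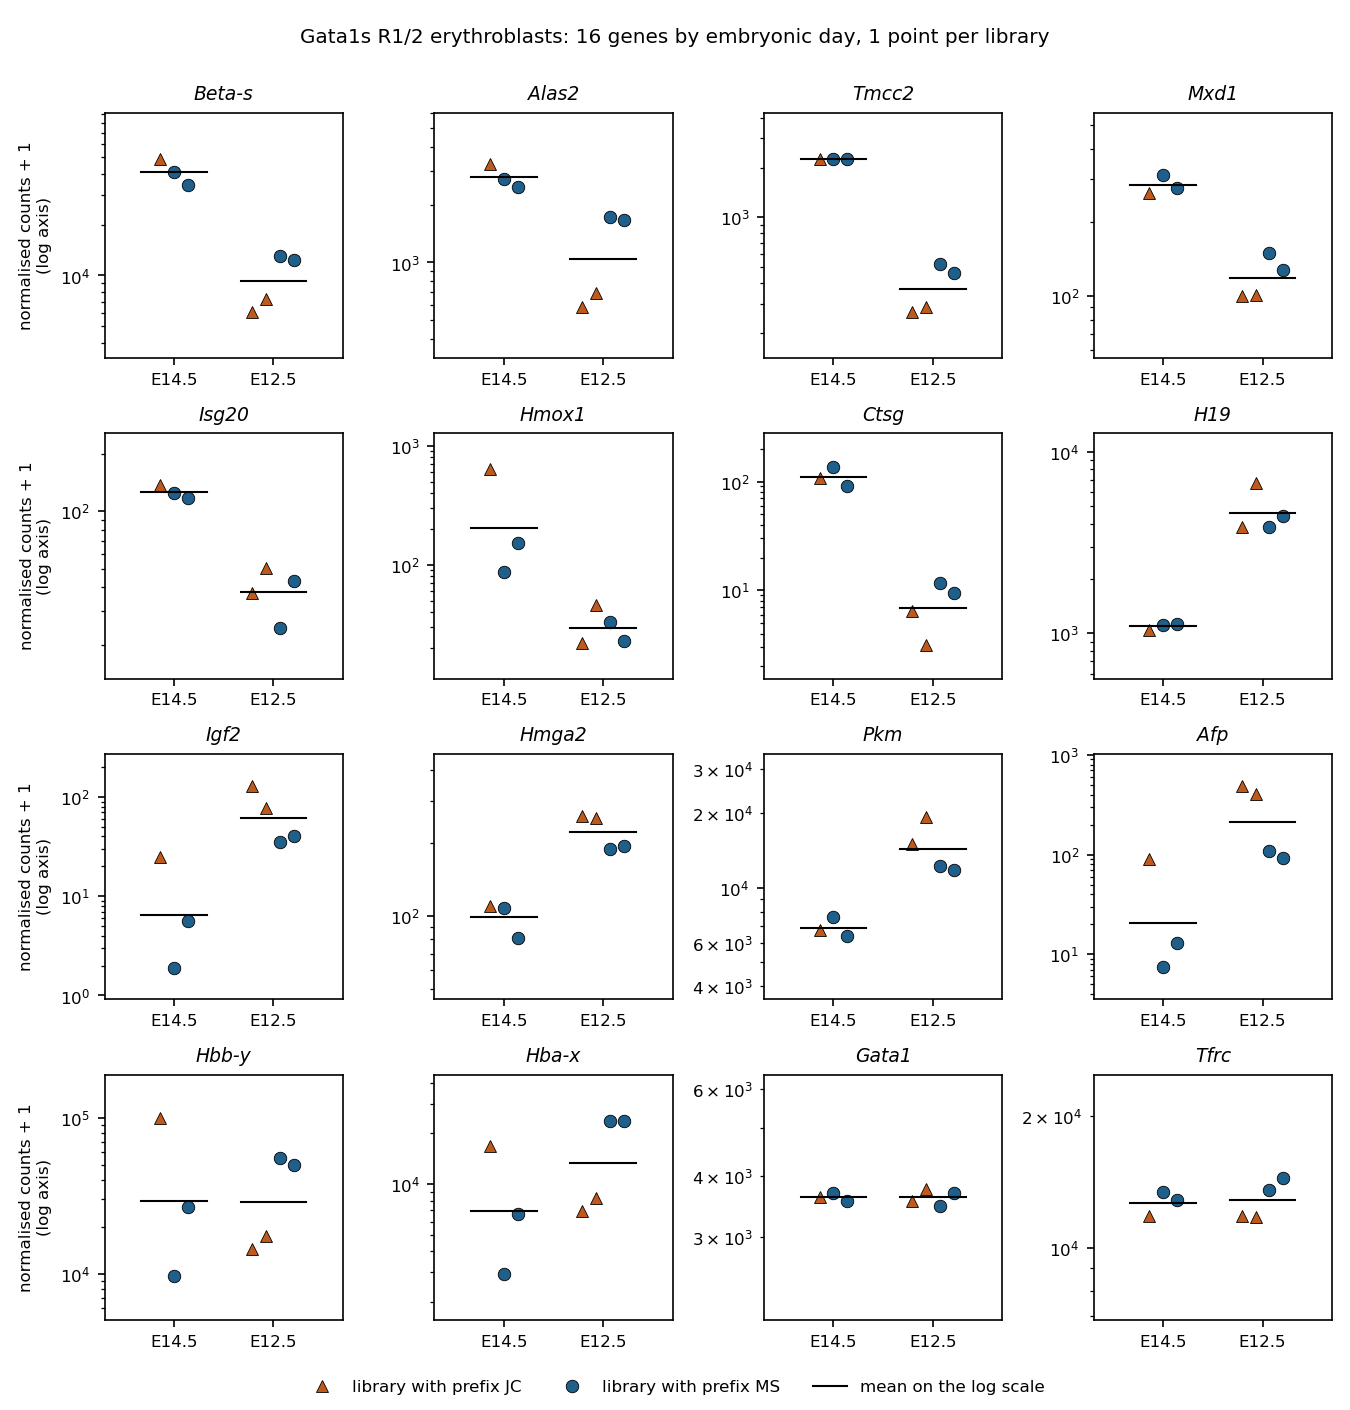
Normalised counts plus 1 of 16 genes on log axes, with E14.5 left of E12.5, 1 point per library (triangles for JC, circles for MS) and a line at the mean on the log scale. Beta-s, Alas2, Tmcc2, Mxd1, Isg20, Hmox1 and Ctsg lie higher at E14.5, H19, Igf2, Hmga2, Pkm and Afp lower, while in Hbb-y and Hba-x the JC and MS libraries are ordered differently on the 2 days.

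Regulators of growth and cell cycle exit showed a few increases. In the list of CDK inhibitors and genes of cell cycle exit, 4 of 23 rose and none fell (median 0.36), namely Mxd1, Mxd3, another Max partner (41.8, 49.2 and 53.8 normalised counts at E14.5, against 32.4, 21.6, 26.9 and 22.1 at E12.5, 0.90 ± 0.15, adjusted p = 0.00564), Cdkn2c, and Rb1, the retinoblastoma gene (0.56, adjusted p = 0.046). E2f2, an E2F factor with a known part in the last erythroblast divisions, rose as the single call among 21 erythroid transcription factors, with 1352, 1569 and 1552 at E14.5 against 805, 671, 963 and 1047 at E12.5 (0.72 ± 0.14, adjusted p = 0.0129). Cdc25b, a phosphatase that starts mitosis, was the single call among 40 G2 and M phase genes (714, 860 and 783 against 332, 369, 413 and 444, 0.93 ± 0.17, adjusted p = 0.00917), whose median was -0.03. None of 42 S phase genes passed (median 0.09). Without E14.5 replicate 1 the calls of E2f2 and Cdc25b were lost (adjusted p = 0.176 and 0.135).

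Fetal growth and heterochronic genes fell in 6 of 15 cases and rose in none, with a median log2 difference of -0.43 against 0.01 for all tested genes. H19, an imprinted non-coding RNA that accompanies Igf2, had 1046, 1104 and 1124 normalised counts at E14.5, against 3830, 6763, 3851 and 4451 at E12.5. Every E14.5 library was below every E12.5 library (-2.06 ± 0.22, adjusted p = 0.000121), and the gene fell within JC (-2.28) and MS libraries (-1.89). Igf2 itself, a fetal growth factor, had 24, 0.912 and 4.65 at E14.5, against 128, 76.6, 34.3 and 39.9 at E12.5 (-2.95 ± 0.44, adjusted p = 0.00298). In E14.5 replicate 2 the value of Igf2 is 1 read, under the floor of 3 reads, so its log2 difference is not to be read as a fold. Hepatoblasts, whose genes are described below, are known to express Igf2 strongly, and their part in its fall was not tested.

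Hmga2, a chromatin protein of fetal stem cells, had 109, 107 and 80.4 normalised counts at E14.5, against 259, 253, 188 and 194 at E12.5 (-1.14 ± 0.22, adjusted p = 0.0134). Igf2bp1, an RNA-binding protein of fetal tissue, had 1060, 1336 and 1330 at E14.5, against 2216, 2289, 2296 and 2248 at E12.5 (-0.84 ± 0.20, adjusted p = 0.0443). Grb10, an imprinted adaptor that restrains growth signals, had 5567, 6028 and 6157 at E14.5, against 7942, 8463, 7700 and 7900 at E12.5 (-0.43 ± 0.07, adjusted p = 0.00564). The imprinted zinc finger gene Peg3 had 23.2, 23.7 and 15.3 at E14.5, against 66.3, 52.9, 56.3 and 77.2 at E12.5 (-1.56 ± 0.22, adjusted p = 0.00187). In all 4 the days did not overlap. Lin28b, which blocks let-7 maturation, had 1696, 1932 and 1940 at E14.5, against 1874, 1693, 1995 and 2080 at E12.5 (-0.07 ± 0.05, adjusted p = 0.799), and Igf2bp3 had 1188, 1063 and 1162 against 1299, 1128, 1145 and 1163 (-0.05, adjusted p = 0.975). The remaining members did not pass, with Dlk1 at -1.57, Cdkn1c at -0.86, Igf1r at -0.13, Igf2bp2 and Arid3a at -0.12, Igf2r at 0.12 and Mest at 0.15. The call of Igf2bp1 was lost on leaving out any of the 7 libraries (adjusted p 0.0703 to 0.492), that of Grb10 without E14.5 replicate 1 (0.102), and that of Hmga2 without E14.5 replicate 1 or 3 or E12.5 replicate 1 (0.0508 to 0.103), while those of H19, Igf2 and Peg3 were kept each time. The call of H19 was kept in all other alternatives run too, that of Igf2 was lost without a prefix term (adjusted p = 0.0825) and in JC libraries only (0.0761), and that of Peg3 in JC libraries only (0.0554).

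Pkm, the pyruvate kinase gene, fell as the single call among 30 genes of glycolysis and hypoxia. It had 6730, 7590 and 6358 normalised counts at E14.5, against 15019, 19214, 12259 and 11801 at E12.5 (-1.03 ± 0.16, adjusted p = 0.00304, and 0.0528 without E14.5 replicate 1). The list's median was -0.23 and 24 of 30 differences were negative, among them Hk2 (-0.68), Aldoa (-0.45), Pgk1 (-0.44) and Ldha (-0.32), which did not pass. Within JC libraries the median of the list was -0.42, and within MS libraries -0.06. Other genes that fell included Cpne7, a copine (133, 147 and 152 at E14.5, against 254, 307, 351 and 288 at E12.5, -1.12 ± 0.22, adjusted p = 0.0136), Luzp1 (-0.85), B4galt5, a galactosyltransferase gene (-0.81), the polycomb gene Phc1 (-0.50), Pcbp4 (-1.85) and Rcn3 (-1.17). Of these, Rcn3 was lost on leaving out any library (adjusted p 0.0526 to 0.273), Pcbp4 on leaving out any except E14.5 replicate 2 (0.0623 to 0.383), and Phc1, Cpne7, B4galt5 and Luzp1 for 5, 4, 4 and 1 of 7, in each case including E14.5 replicate 1.

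Hepatoblast genes fell in 5 of 10 cases and rose in none (median -1.61). Afp, alpha-fetoprotein, had 89.3, 6.38 and 12 normalised counts at E14.5, against 486, 405, 107 and 92.5 at E12.5 (-2.97 ± 0.45, adjusted p = 0.00298). Alb, albumin, had 80, 11.9 and 9.3 at E14.5, against 242, 195, 66.1 and 62.8 at E12.5 (-2.06 ± 0.41, adjusted p = 0.0172). In both, the JC libraries were higher than the MS libraries of the same day. Alb in E14.5 replicate 1 lay above both MS libraries of E12.5, while within each prefix the E14.5 libraries were below the E12.5 ones. Trf, transferrin, fell too (-1.45 ± 0.32), as did Apob, the apolipoprotein of lipid particles (-2.96 ± 0.64). Rbp4, which carries retinol, fell to 0 to 0.912 normalised counts at E14.5, under the floor of 3 reads, against 1.63 to 23.4 at E12.5 (adjusted p = 0.0465). The summed level of the 25 hepatoblast genes in the table was 305, 70.2 and 61.1 at E14.5, against 1232, 978, 300 and 289 at E12.5, and Apoc3 was at 0 in all 7 libraries. In bulk samples fewer cells of a type and less RNA per cell cannot be told apart. The call of Afp was kept on leaving out any 1 library (adjusted p up to 0.0169) but lost without a prefix term (0.17), and its MS minus JC difference was -2.39 (adjusted p = 0.000542). Calls were lost for Alb in 5 and for Trf in 6 of 7 omissions (adjusted p 0.0613 to 0.0848, and 0.07 to 0.267), all except E12.5 replicates 1 and 2 for Alb and E12.5 replicate 3 for Trf.

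Genes of neutrophils and monocytes rose in 2 of 23 cases and fell in none (median 0.89). Of the 23 differences 18 were above 0 and 5 below. Those below were Ltf (-0.71), Ngp (-0.39), Lyz1 (-0.39), Lcn2 (-0.37) and Lyz2 (-0.31), none of which passed. Ctsg, cathepsin G of neutrophil granules, had 107, 134 and 90.4 normalised counts at E14.5, against 5.47, 2.16, 10.6 and 8.49 at E12.5 (4.03 ± 0.90, adjusted p = 0.0344). Csf1r, the receptor of macrophage colony-stimulating factor, had 43.7, 36.5 and 35.2 at E14.5, against 10.6, 2.16, 9.8 and 5.09 at E12.5 (2.50 ± 0.51, adjusted p = 0.0197). The granule protease genes Elane (279, 261 and 185 against 53.2, 19.8, 53.1 and 56) and Prtn3 (470, 446 and 351 against 200, 117, 150 and 190) did not overlap between days either, yet did not pass (adjusted p = 0.38 and 0.592). Of all tested genes, 10.7% lay higher at E14.5 without overlap and 1.08% were called higher. In wild type R1/2 cells at E14.5 Elane and Prtn3 averaged 628 ± 875 and 976 ± 1317 (SD, n = 2), a spread that enters the same fit. The summed level of the 29 genes ranged from 5556 to 6082 at E14.5 and from 1781 to 4137 at E12.5. The call of Ctsg was lost on leaving out any library except E12.5 replicate 3 (adjusted p 0.064 to 0.198), and that of Csf1r without any E14.5 library or E12.5 replicate 4 (0.0613 to 0.167).

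Of 12 macrophage genes 3 rose and none fell (median 0.91). Hmox1, heme oxygenase, which breaks down heme in macrophages and is also induced by stress in other cells, had 634, 85.7 and 151 normalised counts at E14.5, against 21.1, 44.6, 31.8 and 22.1 at E12.5 (2.86 ± 0.48, adjusted p = 0.00563, and 0.066 without E14.5 replicate 1, the highest library). Slc40a1, ferroportin, the iron exporter of macrophages and also of erythroblasts, had 1022, 808 and 967 at E14.5, against 687, 664, 648 and 724 at E12.5 (0.46 ± 0.11, adjusted p = 0.0397), a call that 5 of 7 omissions ended, all except E14.5 replicate 2 and E12.5 replicate 4 (0.109 to 0.354). It is also the single call among 15 genes of iron uptake and storage. The defining macrophage genes were low, with Emr1, F4/80, at 8.21 to 17.3 against 5.75 to 13.9, Cd68 at 23.2 to 29.2 against 14 to 38.4, and C1qb at 3.99 to 4.64 against 0 to 1.82, and Vsig4 at 0 in all 7 libraries. The summed level of the 23 genes was 1226 to 2010 at E14.5 and 971 to 1002 at E12.5, mostly from Slc40a1 and Hmox1, and that of the other 21 was 278 to 354 at E14.5 and 250 to 294 at E12.5.

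Mast cell, basophil and eosinophil genes gave 1 call among 8, Srgn, the proteoglycan serglycin of many blood cells, with 572, 501 and 582 normalised counts at E14.5 against 354, 365, 281 and 297 at E12.5 (0.82 ± 0.18, adjusted p = 0.0304, lost in each of the 7 omissions, 0.0695 to 0.15). The mast cell protease genes Mcpt4, Cma1, Tpsb2 and Tpsab1 were at 0 in all 7 libraries. Megakaryocyte and platelet genes gave no call among 23 (median -0.19), and their summed level was 3249 to 3716 at E14.5 and 3296 to 5564 at E12.5. Itga2b, the platelet integrin chain, had 431, 417 and 484 at E14.5, against 862, 729, 596 and 687 at E12.5 (-0.73 ± 0.23, adjusted p = 0.179). No call came from 12 stem and progenitor genes (summed level 5873 to 6466 against 5562 to 7137) or 5 endothelial genes (478 to 574 against 561 to 801). Lymphoid genes were almost absent, with no B cell gene tested and the 15 in the table summing to 21 to 33.9 at E14.5 and 7.35 to 10.2 at E12.5, and the 15 T and NK cell genes summing to 43.2 to 46.4 and 26.6 to 42.4. The part of these marker levels in the differences above was not tested.

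Interferon-stimulated genes rose in 3 of 24 cases and fell in none (median 0.50). Irf8, a transcription factor of monocytes and dendritic cells, had 31.7, 21.9 and 27.9 normalised counts at E14.5, against 1.82, 0.719, 3.27 and 0 at E12.5, where it was at or near the floor of 3 reads (adjusted p = 0.00254). The others were Isg20 and Oasl2 (17.8, 16.4 and 9.3 at E14.5, against 1.46, 3.24, 0 and 1.7 at E12.5, adjusted p = 0.00754). Tap1, the peptide transporter of MHC class I loading, was the single call among 16 genes of MHC class I and antigen processing (59.6, 52 and 39.9 against 16.8, 18.3, 13.9 and 8.49, 1.83 ± 0.42, adjusted p = 0.0418), and it was lost on leaving out any library (0.0884 to 0.297). Klf6 rose as the single call among 16 immediate early genes (263, 127 and 228 against 55.8, 62.9, 109 and 100, 1.23 ± 0.26, adjusted p = 0.023), whose median was 0.76. Ppp1r15a, GADD34, which ends translation arrest, was the single call among 25 genes of the integrated stress response (1453, 1025 and 1340 against 439, 550, 784 and 666, 1.00 ± 0.19, adjusted p = 0.0129), whose median was -0.09. Both were lost without E14.5 replicate 1 (0.256 and 0.138), Klf6 also without E14.5 replicate 3 or E12.5 replicate 1 or 2 (from 0.0675).

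The other lists gave no call. Among 21 regulators of globin switching the median was 0.04, with Bcl11a at 0.01, Klf1 at 0.05, Myb at 0.06, Zbtb7a at 0.08, Nfix at 0.49 and Sox6 at 0.57. Medians were 0.06 for 76 ribosomal protein genes, 0.07 for 67 genes of oxidative phosphorylation, -0.03 for 27 of cholesterol synthesis, 0.01 for 21 of erythropoietin signalling and -0.11 each for 5 Hox and Tale genes and 5 sex-linked genes. Both Xist and Y-linked genes had counts in each of the 7 libraries.

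**Figure D3:**
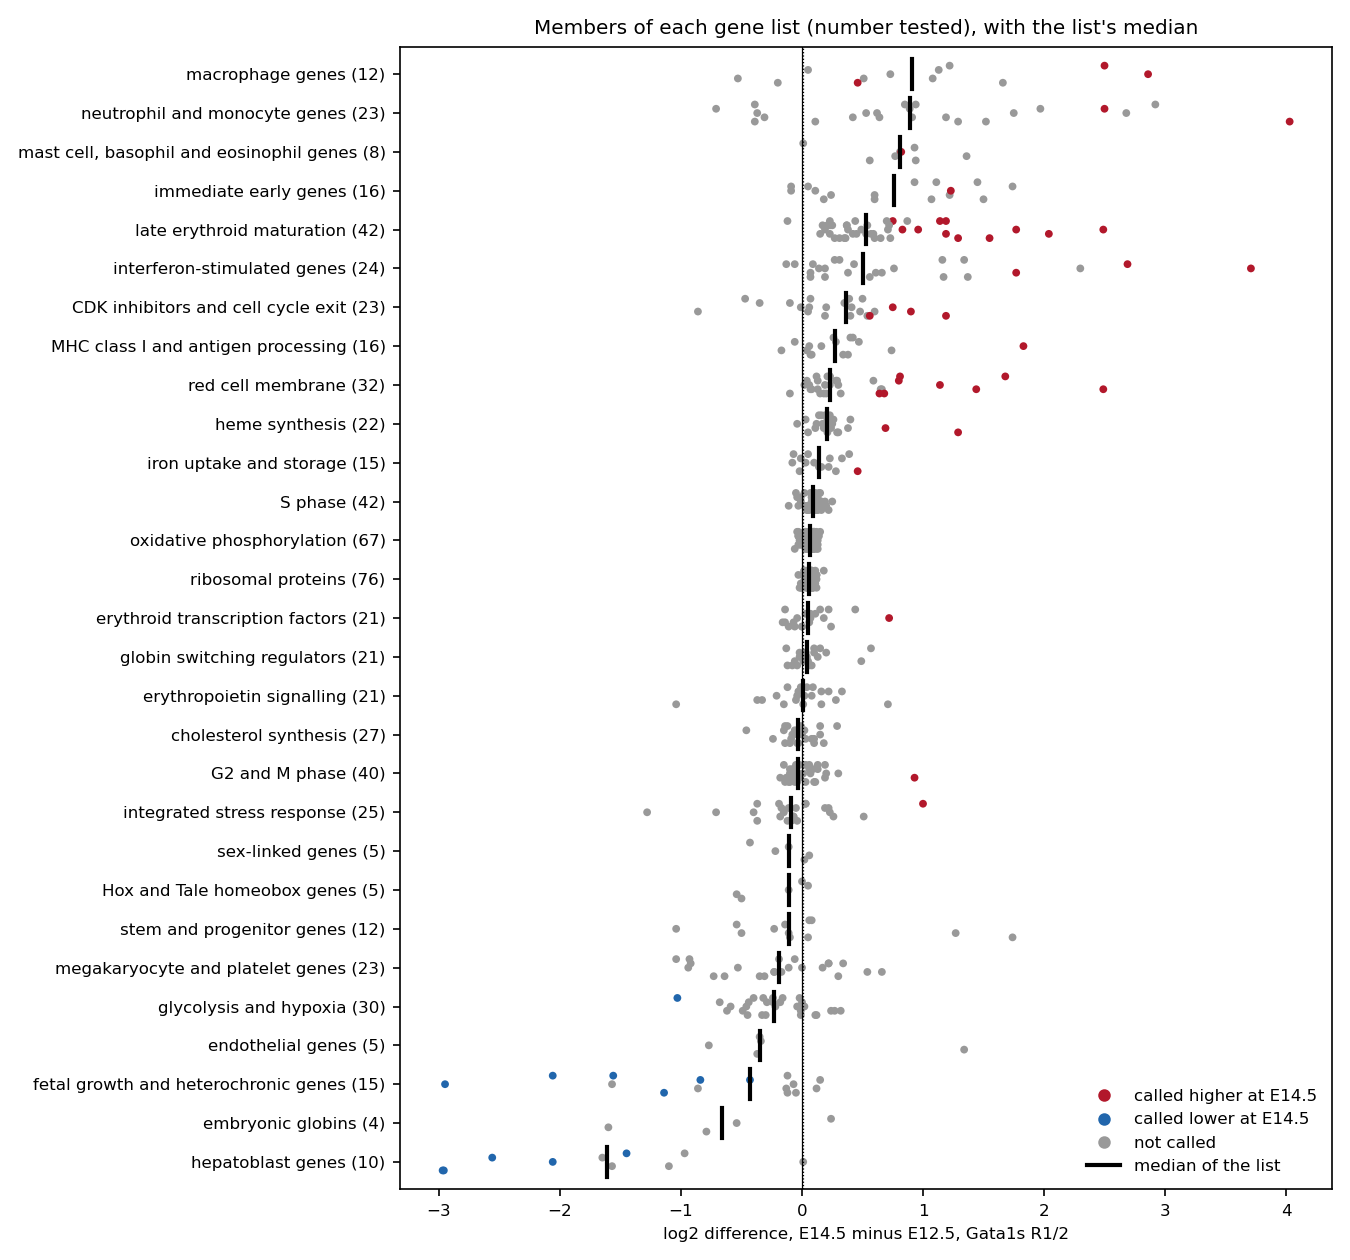
Log2 difference between E14.5 and E12.5 of the tested members of each gene list with at least 4 tested members, sorted by the list's median (black bar), with called members in red (higher) or blue (lower). The macrophage list has the highest median (0.91) and the hepatoblast list the lowest (-1.61).

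The same difference between days was set beside that of wild type R1/2 cells, to see whether it depends on genotype. In wild type, 84 genes were higher and 27 lower at E14.5 (1.04%). All 116 genes called higher in Gata1s cells had a positive difference in wild type and 44 were called there, with medians of 1.03 in Gata1s and 0.97 in wild type cells. Of the 26 called lower, 22 were negative in wild type and 1, H19, was called, with medians of -1.50 in Gata1s and -0.51 in wild type cells. The difference between the 2 genotypes, tested gene by gene, passed for 1 of 10720 genes (0.00933%), and 269 reached an unadjusted p under 0.05. That gene, Gm8615, a predicted gene named because it was the single call, had 40.2, 41 and 44.5 normalised counts at E14.5 against 41.2, 41.7, 31.8 and 45.8 at E12.5 in Gata1s, and 0 in both wild type E14.5 libraries, against 19 ± 14.9 at E12.5 (SD, n = 2). This call is not kept with a pseudocount of 5, without a filter or without the prefix term.

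Differences between the genotypes in Hmga2, Peg3, Afp, Igf2 and Alb did not pass. The 95% intervals given here are not adjusted for the number of genes tested. These genes are not the only named ones whose interval leaves out 0. Fhdc1 (1.49, interval 0.65 to 2.34) and Hmox1 (1.91, 0.25 to 3.58) lay above 0 and Isg20 (-0.91, -1.70 to -0.12) below, and none of them passed. Hmga2 averaged 98.6 ± 15.8 at E14.5 and 223 ± 37.7 at E12.5 in Gata1s cells (SD, n = 3 and 4), and 345 ± 24.8 and 240 ± 90.8 in wild type cells (n = 2 each). Its difference between days was lower in Gata1s by 1.71 (95% interval -2.48 to -0.95, adjusted p = 0.392). Peg3 averaged 20.7 ± 4.73 at E14.5 and 63.2 ± 11 at E12.5 in Gata1s cells, and 127 ± 1.84 and 131 ± 48.1 in wild type cells (-1.56, interval -2.34 to -0.79, adjusted p = 0.497). For Afp the difference of the 2 was -2.33 (-3.88 to -0.77, adjusted p = 1), for Igf2 -2.11 (-3.65 to -0.56, adjusted p = 1) and for Alb -1.97 (-3.40 to -0.54, adjusted p = 1). For Beta-s it was -0.12 (-1.20 to 0.96) and for Tmcc2 0.48 (-0.25 to 1.21). With 2 wild type libraries per day these intervals are wide, and an adjusted p above the threshold does not show that the genotypes act alike.

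**Figure D4:**
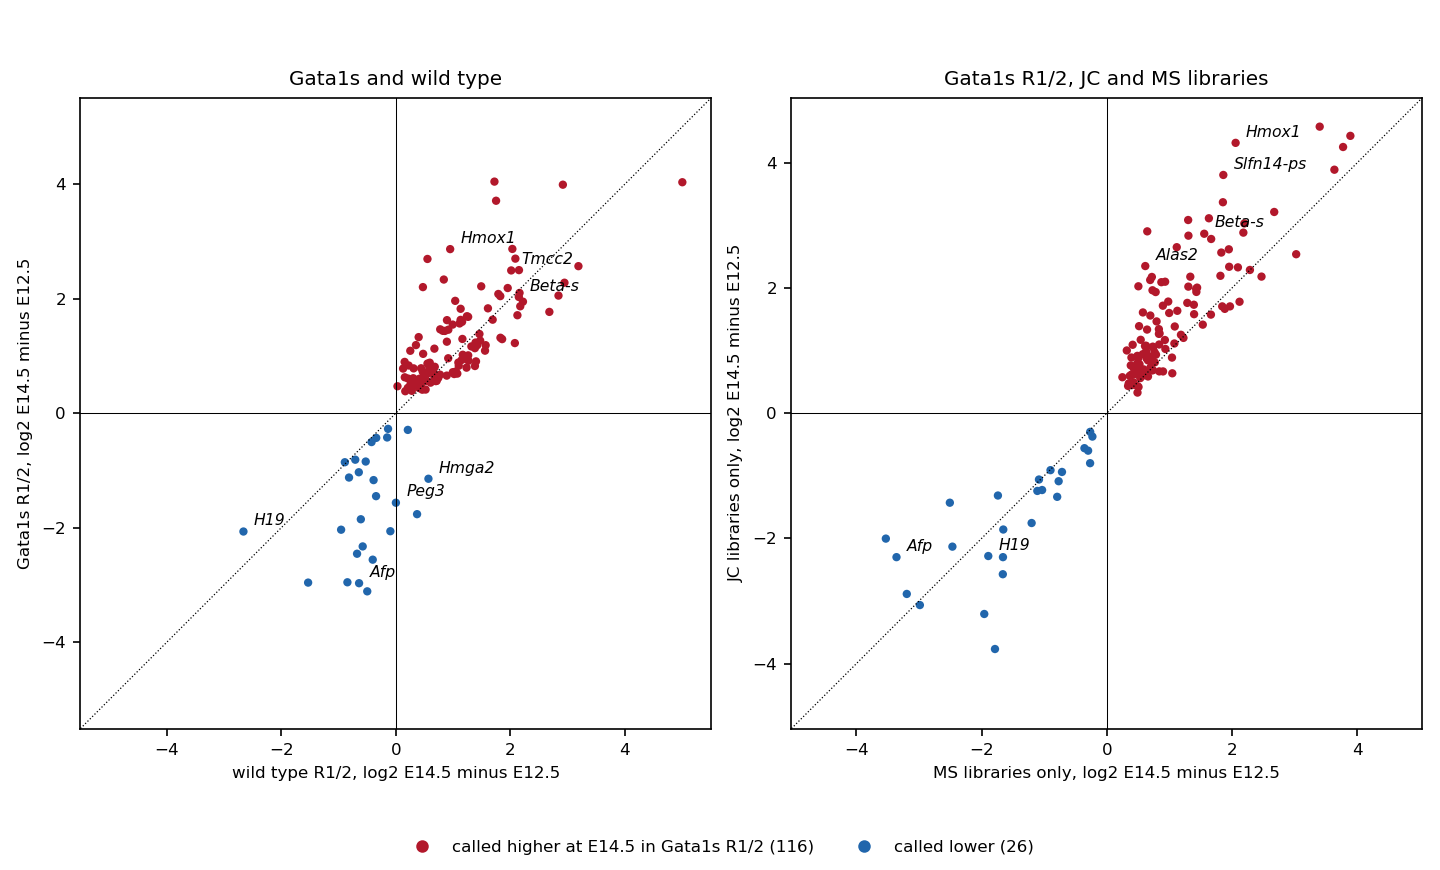
Log2 differences between E14.5 and E12.5 of the 142 genes called in Gata1s R1/2 cells, with Gata1s on the y axis against wild type R1/2 on the x axis (left) and JC against MS libraries of Gata1s (right), red for called higher and blue for called lower. All red points lie above 0 on both axes in both panels, and 4 blue points, Hmga2 (0.57) and Peg3 (0.00) among them, are not below 0 in wild type.

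The R3 sort of the same genotype gave many more calls. At E14.5, 3163 genes were higher and 3274 lower than at E12.5 in Gata1s R3 cells (60%). The difference between days differed between R1/2 and R3 for 5249 genes (49%), with 2592 higher and 2657 lower in R1/2. All Gata1s R3 libraries are MS, and under upper-quartile scaling the split was 3970 higher and 1852 lower, with the median of this difference at 0.33 against 0.07 as deposited. Of the 116 genes called higher in R1/2, 110 were positive in R3, and of the 26 called lower 20 were negative. Tmcc2 rose in both, by 2.49 in R1/2 and 4.49 in R3 (difference -2.0, adjusted p = 0.000206), and averaged 271300 ± 28030 at E14.5 against 12080 ± 1181 at E12.5 in R3 (SD, n = 2 each). Alas2 differed by -1.52 between R1/2 and R3 (adjusted p = 0.0147) and Xpo7 by -3.85 (2.65e-06), while for Beta-s the difference was -0.75 (adjusted p = 0.235). Pkm fell in R1/2 and was at 0.30 in R3 (difference -1.33, adjusted p = 0.000549). Hmga2 fell by 1.14 in R1/2 and was at 0.65 in R3 (-1.80, adjusted p = 0.000715). H19 fell by 2.06 in R1/2 and by 0.99 in R3 (difference -1.07, adjusted p = 0.0247), whereas Igf2bp1 and Grb10 fell further in R3 (differences 0.90 and 0.51, adjusted p = 0.0289 and 0.00227). Lin28b, not called in R1/2, fell by 0.85 in R3 (difference 0.77, adjusted p = 4.29e-06).

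Several genes that did not pass in R1/2 also differed between the sorts. Zbtb10, a zinc finger gene, had 65.4, 63.8 and 89 normalised counts at E14.5 and 115, 106, 117 and 107 at E12.5 in R1/2 (-0.61). In R3 it averaged 1.35 ± 1.9 at E14.5, under the floor of 3 reads in both libraries (8.08 and 11.1 normalised counts there), against 37.4 ± 12.2 at E12.5 (SD, n = 2 each). Tbc1d16, a Rab GTPase activator, was at -1.10 in R1/2, and in R3 at 0 in both E14.5 libraries, against 26.6 ± 14.4 at E12.5. Zfp783 was at -0.27 in R1/2, and in R3 averaged 16.2 ± 22.9 at E14.5, with 1 of 2 libraries under the floor, against 84.4 ± 8.69 at E12.5. For these 3 the fitted difference between the sorts depends on the pseudocount, and no fold is given. In the other direction, Loxl2, a lysyl oxidase relative, was at -0.27 in R1/2 and 3.95 in R3, Bpgm at 0.87 and 4.73, Xpo7 at 0.70 and 4.55, and Slc22a21, a carnitine transporter, at -0.36 and 3.34. Csf1r rose by 2.50 in R1/2 and was at -1.41 in R3 (difference 3.91, adjusted p = 0.00112).

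Both prefixes showed the direction of every one of the 142 calls when taken alone. As the calls were made from these same libraries, this is no independent support for them. Among the 116 genes called higher the median was 1.31 within JC libraries (1 at E14.5 and 2 at E12.5) and 0.81 within MS libraries (2 and 2). Among the 26 called lower it was -1.38 and -1.43. The JC and MS differences between days differed for no gene in limma (0%), with 149 at an unadjusted p under 0.05. With 1 JC library at E14.5, that comparison can miss large differences, such as the 4.36 of Hbb-y (JC minus MS). The fit without a prefix term called 67 higher and 9 lower. In the late maturation list the median was 0.74 within JC and 0.41 within MS libraries, and in the red cell membrane list 0.31 and 0.20.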

How the data were processed

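The values are normalised counts per gene as deposited by the authors, a scaled read signal (unit signal) made, per the submitters' processing notes, with TopHat2, HTSeq and DESeq2 among the tools named. The notes name mm10 and mm9 without saying which served the RNA, and RNA was a directional poly-A library from sorted cells per the labels' protocols. All values divided by what 1 read is worth in their library came out whole within 0.001 (100%), so reads were recovered. Of 23420 entries, 27 were spreadsheet dates and were left out, and 1 column with no matching sample was not used. Genes averaging 10 or more across the 20 RNA libraries were tested with limma 3.58.1 (R 4.3.3, trended empirical Bayes) on log2(value + 1), with 8 groups and the library prefix in 1 fit (11 residual degrees of freedom), two-sided, with Benjamini-Hochberg adjustment at 0.05. edgeR 4.0.16 and DESeq2 1.42.0 on recovered reads, other scalings, filters and pseudocounts, fits within a prefix and omissions of 1 library were alternatives. The fits were tested on 1 simulated set, with day effects put only into Gata1s R1/2. Of day differences of log2 1, 68% were recovered, and 2.44% of the calls were false. For the difference from wild type these were 55% and 3.62%. For the difference from Gata1s R3 they were 54% and 9.52%, so false calls there exceeded the threshold. Genes named by the rule were the 12 largest called changes in each direction without overlap and with a mean of at least 50, up to 2 called members per list, all globins, tested fetal growth genes and sort markers, the largest differences from wild type and R3, and 3 markers of each other cell type. Other genes were chosen after their values were seen. The groups and gene lists were chosen with earlier results of these data known. Floors of 3 reads (1.08 to 2.74 normalised counts) cover counting error only. Some named genes are not reported here.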

Additional observations from a re-analysis of the deposited data

Results flagged for a closer look

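Within the E12.5 group, a single library stood apart from the rest for 2 of 83 genes, which chance gives in about 5% of groups. The E14.5 group was not examined by this rule, so libraries that stand apart there are not listed. Elane had 19.8 normalised counts in E12.5 replicate 2, below the other 3, and Kdr had 18.2 in E12.5 replicate 1, above the other 3.

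The difference between days differed from wild type for Gm8615 (4.25). It was at 0 in both wild type E14.5 libraries, so this size depends on the pseudocount.

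It differed from that of R3 cells (limma, R1/2 minus R3, log2) for the named genes that follow. Among red cell and heme genes it was lower in R1/2 for Tmcc2 (-2.0), Alas2 (-1.52), Slc25a37 (-1.05), Stom (-1.12), Bpgm (-3.86), Xpo7 (-3.85), Tcp11l2 (-2.67), Fam214b (-1.96), Tfrc (-0.91) and Slc40a1 (-0.87). Among regulators it was lower for Mxd1 (-1.75), E2f2 (-1.29), Cdc25b (-0.94), Gata1 (-0.86), Klf6 (-1.09), Ppp1r15a (-1.53), Isg20 (-1.25), Cdkn1c (-1.61) and Phc1 (-0.80). Fetal genes were split, with H19 (-1.07), Hmga2 (-1.80) and Igf1r (-0.70) lower, and Igf2bp1 (0.90), Igf2bp3 (0.48), Grb10 (0.51) and Lin28b (0.77) higher. Markers of other cells were lower for Itga2b (-1.54), Kdr (-3.07) and Srgn (-1.15), and higher for Csf1r (3.91), C1qb (4.00), Irf8 (2.84) and Prg3 (3.27). Of the remaining genes, Pkm (-1.33), B4galt5 (-2.28), Loxl2 (-4.21) and Slc22a21 (-3.70) were lower, and Cpne7 (2.06), Dock10 (1.85), Tbc1d16 (3.58), Zbtb10 (3.67) and Zfp783 (3.61) higher. For Zbtb10, Tbc1d16 and Prg3 both E14.5 R3 libraries, and for Zfp783, C1qb and Irf8 1 of the 2, were under 3 reads (8.08 and 11.1 normalised counts there), so the sizes given for these 6 depend on the pseudocount.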

How the results depend on the processing

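The counts depended on the fit. Genes called higher (116) numbered 205 with quantile normalisation, 67 without a prefix term, 67 in JC libraries only, 870 with the groups compared only, 60 with a 2-fold minimum, 181 in edgeR, 313 in DESeq2 and 25 to 87 on leaving out 1 library. Genes called lower (26) numbered 54, 9, 12, 601, 18, 69, 138 and 5 to 19 under the same alternatives, and 16 in MS libraries only. edgeR shared 139 calls with limma (97.9% of limma's and 55.6% of its own), and DESeq2 all 142 (31.5% of its own). The share called higher was 81.7%, but 69.4% in DESeq2 and 59.1% with the groups compared only. With the replicate block 39 were higher and 10 lower, 46 of them shared, but same-numbered libraries deviated together in 2 of 3 pairs only (correlations 0.17, -0.09 and 0.21), and not every library correlated best with its own number.

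The single gene higher against wild type became 0 with a pseudocount of 5, no filter, a mean of at least 50, quantile normalisation, no prefix term, the replicate block or the groups compared only, 15 in MS and 6 in JC libraries, 2 in edgeR, 10 in DESeq2 and 0 to 3 without 1 library. The 0 lower ones became 137 in MS and 4 in JC libraries, 8 in DESeq2 and 0 to 1 without 1 library. Against R3, 3970 were higher with upper-quartile scaling (68.2% of calls, against 49.4%), and 1046 higher and 1198 lower with a 2-fold minimum; JC libraries alone cannot give this comparison. The cause of these shifts was not tested.

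No call among 42 named genes was reversed in 964 alternatives (746 kept it, 218 lost it). The alternatives used the same libraries as the calls, and the largest changes were named for having no overlap between days. The lack of reversals is thus no independent support for the calls. Besides leaving out 1 library, the replicate block ended 26 of the 42 calls, JC libraries only 23, no prefix term 18, MS libraries only 15, a 2-fold minimum 13 and no filter 11. Of 41 named genes not called, these differences changed sign: Gata1 (0 without a prefix term and with equal prefix weights, an alternative added after seeing the data, 0.01 with the replicate block or the groups compared only, and 0.02 in MS libraries), Tfrc (0) and Kit (-0.02) in JC libraries, Gata2 (0.22), Igf1r (0), Igf2bp2 (0.81), Loxl2 (0.04) and Cd68 (-0.23) in MS libraries, Slc22a21 (0.03) and Hba-x (1.15) in JC libraries, Zfp783 (0.19 with the replicate block) and Hbb-y (-1.71 in MS libraries, -0.22 in edgeR, -0.23 in DESeq2). Without 1 library the range was -0.03 to 0.02 for Gata1, -0.38 to 0.85 for Hbb-y, -0.58 to 0.25 for Igf2bp2, -0.2 to 0.02 for Igf1r and -0.1 to 0.22 for Cd68. Among the 41 named genes not called, 30 of 929 alternatives gave a call instead. Tbc1d16 passed in edgeR (adjusted p = 0.0123) and in DESeq2 (4.21e-05), and Bpgm in DESeq2 (0.0331). Of 435 list medians under the alternatives, 403 moved by less than their spread.

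Genes under about 3 reads in a library (1.08 to 2.74 normalised counts) give no interpretable fold.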

Other observations

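Of the 142 genes called, 97 belong to none of the gene lists, and those named here were chosen after their values were seen. Fn3k, which removes sugar adducts from proteins, had the smallest p of all genes tested, with 32.1, 31.9 and 31.9 normalised counts at E14.5, against 0.364, 0.719, 0.816 and 1.7 at E12.5, where every library was under 3 reads (limma adjusted p = 5.41e-07). Among more abundant genes, Mgll, a monoacylglycerol lipase, had 304, 254 and 206 at E14.5, against 89.3, 88.1, 93.9 and 92.5 at E12.5 (1.46 ± 0.15, adjusted p = 9.57e-05), and the tetraspanin gene Cd82 had 489, 385 and 333 against 122, 132, 144.5 and 121 (1.60 ± 0.17, adjusted p = 0.000109). Tns1, which links integrins to actin, had 1864, 1686 and 1535 at E14.5, against 582, 615, 705 and 767 at E12.5 (1.38 ± 0.26, adjusted p = 0.0119). Tgm2, a transglutaminase, had 852, 927 and 839 against 398, 416, 522 and 536 (0.88 ± 0.14, adjusted p = 0.00365).

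A further 3 plasma protein genes fell, Itih2, Ambp and Serpinf2. Itih2 had 5.8, 0 and 0.664 normalised counts at E14.5, against 52.5, 46.4, 10.6 and 11 at E12.5 (adjusted p = 0.00304). Foxh1, a transcription factor gene of Nodal signalling, had 7.73, 10.9 and 7.31 at E14.5, against 76.5, 83.1, 40.8 and 34.8 at E12.5 (-2.45 ± 0.46, adjusted p = 0.0123).

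Every one of the 7 libraries had counts of Xist and of the Y-linked gene Ddx3y. Ddx3y had 261, 723 and 795 normalised counts at E14.5, against 416, 358, 594 and 598 at E12.5, lowest in the JC libraries.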
